A study of Mus musculus with 4 samples.

Results

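The enzymes of serine synthesis and of folate one-carbon metabolism were examined in S-180, a mouse sarcoma line, whose cells had been given 20 µM fluoxetine for 12 h or had been cultured for the same 12 h without it. The set held 9 genes of the 13539 that could be tested, chosen by name: Phgdh, Psat1 and Psph of serine synthesis, Shmt2, Mthfd2, Mthfd1l and Aldh1l2 of the mitochondrial folate arm, and Shmt1 and Mthfd1 of the cytosolic arm. They were read by 15 of the 34645 array probes with a single gene symbol, and every one of those probes is given below. There were 2 fluoxetine samples and 2 control samples, each on 1 single-colour Agilent array. Both groups grew in RPMI with 10% FBS in 12-well plates. The labels describe the 2 samples of a group as biological replicates but do not say that the cultures were separate, so that p-values here cover the spread among the 4 samples, which may be technical. No vehicle is named for the control cells, and S-180 is 1 line, so nothing here extends to other tumour cells.

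Serine is made from 3-phosphoglycerate, an intermediate of glycolysis, by the successive action of a dehydrogenase (Phgdh), an aminotransferase (Psat1) and a phosphatase (Psph). Serine hydroxymethyltransferases then move a carbon from serine to tetrahydrofolate, and the folate enzymes carry that carbon as methylene or formyl folate to purines, thymidylate and methionine. The mitochondrial arm releases formate, which the cytosolic arm takes up again. In proliferating cells the mitochondrial arm is a main source of one-carbon units, and the transcription factor ATF4 is known to raise several genes of serine synthesis and of the mitochondrial arm when amino acids run short or the endoplasmic reticulum is stressed.

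A level below is the log2 of an array's processed signal for a probe minus the 75th percentile over that array's probes, and a change is the fluoxetine mean minus the control mean of such levels. Levels of different probes are not comparable with each other. Changes come with the standard error from limma (n = 2 arrays per group) and an adjusted p from limma with Benjamini-Hochberg adjustment over all 13539 genes, where each gene was represented by its brightest probe that passed the filter on dim signal. A gene was called at an adjusted p under 0.05. A second limma fit took each of the 28270 kept probes as its own feature, and p-values of single probes come from it. In RNA from a culture, less RNA per cell and fewer cells of a type cannot be told apart.

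The arrays had 51.7% to 53.5% of their non-control spots well above background, and 0 were saturated. All 4 arrays lay on 1 slide, the arrays of a group side by side, and were scanned together, so that the effect of position there and that of fluoxetine cannot be told apart. Of 10 sarcoma or fibroblast markers, 5 were well above background on both fluoxetine arrays and 7 on both control arrays, and Col3a1, Thy1 and Pdgfrb were so on none. On both arrays of each group 4 of 10 leukocyte markers passed the same limit, and Ptprc, Cd79a, Adgre1, Lyz2 and Ncr1 did so on no array. The summed leukocyte level, in multiples of the 75th percentile, was 61.1 and 52.9 on the fluoxetine arrays and 25.7 and 27.9 on the control arrays. Of 6 epithelial markers, 5 were above background on both fluoxetine arrays and 4 on both control arrays, and their summed level was 198 and 193 with fluoxetine against 223 and 236 in control. Only 1 of 4 endothelial markers and 0 of 4 liver markers were above background on both arrays of a group. What part the shift in these markers has in the results below was not tested.

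Read by their brightest probes, Psph and Shmt2 rose, Shmt1 fell, and the other 6 did not pass the test. The 3 calls make up 33.3% of the 9 genes, beside 27.0% of all genes tested. In single directions, 16.8% of all genes were called higher and 10.2% lower, so that 62.3% of calls were higher, against 87.1% with each array's median in place of its 75th percentile. That scaling moved the median of all genes to 0.27, and with it 4 of the 9 enzymes were called higher and 0 lower. The median change of the 9 genes was 0.13, beside 0.06 over all genes tested, and the median size of their change without regard to sign was 0.15, beside 0.27 over all genes. On these probes 0 of the 9 reached a 2-fold change with a call, beside 4.58% of all genes: all lay between −0.40 and 0.42, inside the range from −0.54 to 0.62 that holds the middle 80% of all genes. The groups did not overlap for 5 of the 9, or 55.6%, beside 72.5% of all genes tested.

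**Figure D1:**
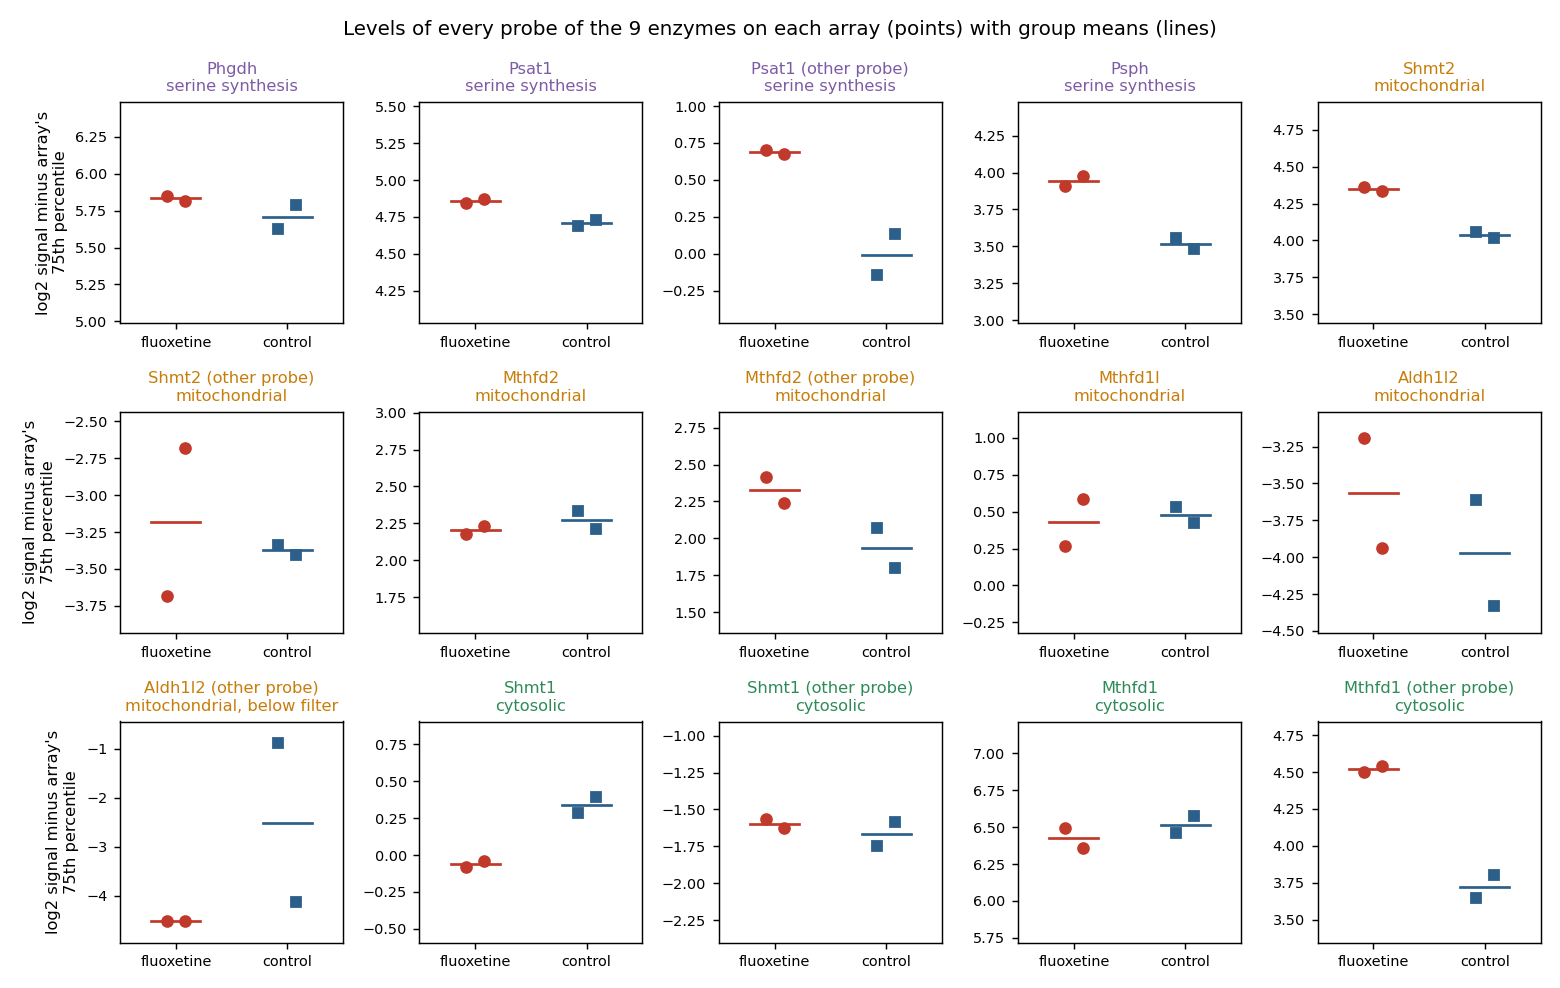
Level of every probe on each array, in log2 units relative to the array's 75th percentile, with fluoxetine arrays as circles, control arrays as squares and group means as lines. All panels have the same height in log2 units except that of the Aldh1l2 probe below the filter, which spans more and in which control array 1 stands at −0.88 while the other 3 arrays lie at −4.14 or lower.

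Psph, the phosphatase that completes serine synthesis, was the called enzyme with the largest rise. Its only probe stood at 3.91 and 3.98 on the fluoxetine arrays and at 3.56 and 3.48 on the control arrays. Both fluoxetine arrays were above both control arrays, and the change was 0.42 ± 0.08, or 1.34-fold (adjusted p = 0.0325 in limma).

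Phgdh, the dehydrogenase that commits 3-phosphoglycerate to the pathway, stood at 5.85 and 5.82 on the fluoxetine arrays and at 5.62 and 5.79 on the control arrays. The groups did not overlap, but their means differed by less than the 2 control arrays did from each other: the change was 0.13 ± 0.09 (adjusted p = 0.349 in limma), with a 95% interval from −0.13 to 0.38. This interval leaves room for a rise of up to 1.30-fold and a fall to 0.915-fold. With scaling by each array's median Phgdh changed by 0.34 and was called higher (adjusted p = 0.0308 in limma).

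Psat1, the aminotransferase of the middle step, was read by 2 probes that gave different sizes of change. The brighter probe stood at 4.85 and 4.87 with fluoxetine against 4.69 and 4.73 in control, a change of 0.15 ± 0.07 that was not called (adjusted p = 0.197 in limma). The other probe stood at 0.70 and 0.68 with fluoxetine against −0.15 and 0.13 in control, a change of 0.70 ± 0.13 that was called in the fit over probes (adjusted p = 0.0335 in limma). On both probes each fluoxetine array was above each control array. The second probe's change exceeded the first's by 0.55, a difference for which the exact two-sided permutation test over arrays gave p = 0.333, the smallest it can give with 2 arrays against 2. Averaged over both probes, Psat1 changed by 0.42 and was called higher (adjusted p = 0.0398 in limma), as it was with scaling by each array's median (0.36, adjusted p = 0.0184 in limma).

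In the mitochondrial arm Shmt2, the hydroxymethyltransferase that starts the arm, was the gene that rose. Its brighter probe stood at 4.36 and 4.34 with fluoxetine against 4.06 and 4.01 in control. The change was 0.32 ± 0.07, or 1.24-fold, with an adjusted p of 0.0471 in limma. In the fit over probes the same values had an adjusted p of 0.0611 in limma and were not called, and with the 75th percentile taken over all spots in place of distinct probes the adjusted p was 0.0509 in limma. Averaged over both probes, Shmt2 changed by 0.25 and was not called (adjusted p = 0.358 in limma). The other Shmt2 probe, designed on another transcript variant, was dim: it stood at −3.69 and −2.68 with fluoxetine and at −3.34 and −3.41 in control. Its fluoxetine arrays lay on both sides of the control arrays, and its change was 0.19 ± 0.37.

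Mthfd2, the dehydrogenase and cyclohydrolase that is low in most adult tissues and high in tumours, was read by 2 probes of similar brightness with changes of opposite sign. The brighter one stood at 2.18 and 2.23 with fluoxetine against 2.33 and 2.21 in control, so that the groups overlapped, and its change was −0.07 ± 0.09 (adjusted p = 0.588 in limma). The other stood at 2.41 and 2.24 with fluoxetine against 2.07 and 1.80 in control. There the groups did not overlap, and the change was 0.39 ± 0.14, which was not called in the fit over probes (adjusted p = 0.115 in limma). The sign of Mthfd2 turned with the mean of both probes (0.16) and with scaling by each array's median (0.15), neither of them called.

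Mthfd1l, the mitochondrial formyltetrahydrofolate synthetase that releases formate, had a single probe at 0.27 and 0.59 with fluoxetine and at 0.53 and 0.43 in control. The fluoxetine arrays enclosed the control arrays, and the change was −0.05 ± 0.14 (adjusted p = 0.802 in limma), with a 95% interval from −0.43 to 0.33.

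Aldh1l2, which oxidises formyl folate in mitochondria and yields NADPH, was near the limit of detection. Its kept probe was well above background on both fluoxetine arrays and on 1 control array. It stood at −3.20 and −3.93 with fluoxetine and at −3.61 and −4.33 in control, so that the groups overlapped, and the change of 0.41 ± 0.37 had a 95% interval from −0.60 to 1.42, too wide to place the gene. The other Aldh1l2 probe was well above background on control array 1 only and was not tested: its processed signal was 15.4 and 18.3 with fluoxetine, and 244 and 23.6 in control.

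In the cytosolic arm Shmt1, the hydroxymethyltransferase of the cytosol, fell on its brighter probe. That probe stood at −0.08 and −0.04 with fluoxetine against 0.29 and 0.39 in control. Both fluoxetine arrays were below both control arrays, and the change was −0.40 ± 0.08, or 0.757-fold (adjusted p = 0.0368 in limma). The other Shmt1 probe did not show this: it stood at −1.56 and −1.63 with fluoxetine and at −1.75 and −1.58 in control, overlapping, with a change of 0.07 ± 0.10. With the mean of both probes in place of the brighter, Shmt1 changed by −0.17 and was not called (adjusted p = 0.203 in limma). With scaling by each array's median it changed by −0.19 and was not called (adjusted p = 0.0919 in limma).

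Mthfd1, the cytosolic enzyme that carries the dehydrogenase, cyclohydrolase and synthetase activities on 1 protein, showed the widest disagreement between probes. Its brighter probe stood at 6.50 and 6.36 with fluoxetine and at 6.46 and 6.57 in control, overlapping, and changed by −0.09 ± 0.09 (adjusted p = 0.505 in limma). The other probe stood at 4.50 and 4.54 with fluoxetine against 3.65 and 3.80 in control, and its change of 0.80 ± 0.10, or 1.74-fold, was called in the fit over probes (adjusted p = 0.0191 in limma). The changes of these 2 probes differed by 0.89, the largest such difference among the 5 enzymes with 2 kept probes (exact permutation p = 0.333, the smallest possible). With the mean of both probes Mthfd1 changed by 0.35 (adjusted p = 0.0520 in limma), and with scaling by each array's median by 0.12 (adjusted p = 0.269 in limma), so that its sign turned without a call. Both probes are assigned to the same RefSeq transcript, so the assignment does not separate them.

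Over all 14 kept probes, 3 were called higher (Psat1, Psph and Mthfd1) and 1 lower (Shmt1), beside 25.6% of all kept probes called (12.6% higher and 13.0% lower). The groups did not overlap for 8 of the 14, beside 72.5% of all kept probes. In 3 of the 5 enzymes with 2 kept probes, Mthfd2, Shmt1 and Mthfd1, the probes changed in opposite directions. The largest changes of the set, at the second probes of Mthfd1 and Psat1, are therefore not those of the brightest probes that represent the genes.

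**Figure D2:**
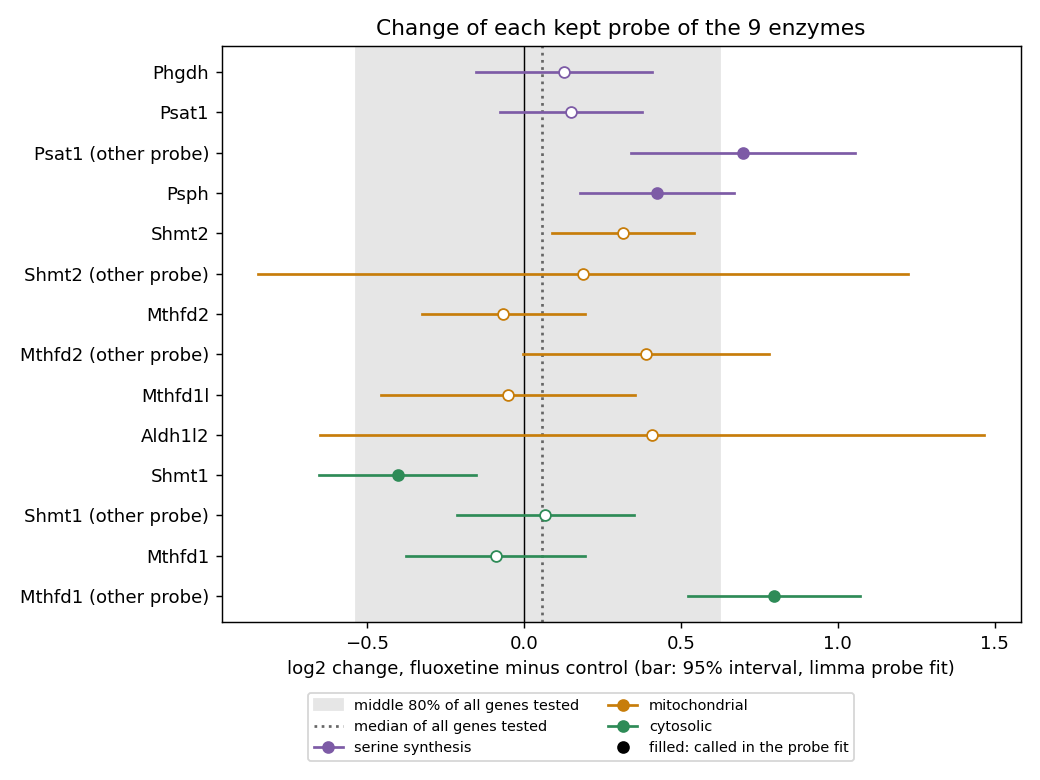
Change of each of the 14 kept probes on the log2 scale (points, filled where called in the fit over probes) with its 95% interval (bars), coloured by arm. The grey band from −0.54 to 0.62 holds the middle 80% of all genes tested. The second probes of Psat1 (0.70) and Mthfd1 (0.80) lie outside it, and the dim probes of Shmt2 and Aldh1l2 have the widest intervals.

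The mitochondrial and cytosolic arms were compared between counterpart enzymes within each array, as the log2 ratio of the mitochondrial to the cytosolic enzyme minus its mean in control. For Shmt2 over Shmt1 this ratio was 0.75 and 0.68 on the fluoxetine arrays and 0.07 and −0.07 on the control arrays. The ratio was thus 0.72 higher with fluoxetine, with a within-group SD of 0.08, and the groups did not overlap (exact two-sided permutation p = 0.333, the smallest possible). Over the 4 ways of pairing the probes of both genes the difference ran from 0.12 to 0.72 and was positive in 4 of 4, and its size depended on the probes read. The pairings share probes and are not independent. Those with the dim Shmt2 probe rest on its change of 0.19 ± 0.37, so their sign is not settled.

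The other counterpart pairs with values showed no such shift on their brightest probes. For Mthfd2 over Mthfd1 the ratio was −0.07 and 0.12 on the fluoxetine arrays and 0.12 and −0.12 on the control arrays, a difference of 0.02 with overlapping groups (exact permutation p = 1). For Mthfd1l over Mthfd1 it was −0.19 and 0.27 with fluoxetine and 0.11 and −0.11 in control, a difference of 0.04, again overlapping (exact permutation p = 1). With other probes the sign was not fixed: the difference ran from −0.86 to 0.48 over the 4 probe pairings of Mthfd2 and Mthfd1, and from −0.85 to 0.04 over the 2 of Mthfd1l and Mthfd1. Aldh1l1, the cytosolic counterpart of Aldh1l2, did not pass the filter on dim signal and has no value here. By arm, 1 of 3 serine synthesis genes rose and 0 fell (median change 0.15). Of 4 mitochondrial genes 1 rose and 0 fell (median 0.13), and of 2 cytosolic genes 0 rose and 1 fell (median −0.25). Over all genes tested 16.8% were called higher and 10.2% lower, and with so few genes per arm these counts do not set the arms apart. The mitochondrial median includes Aldh1l2, whose kept probe passed the filter through the fluoxetine arrays only.

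**Figure D3:**
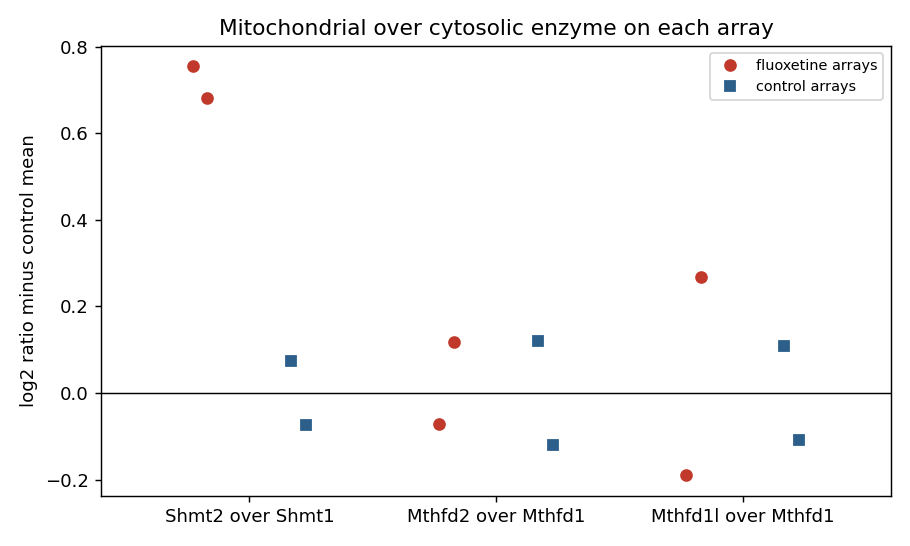
Log2 ratio of each mitochondrial enzyme to its cytosolic counterpart on each array, minus the mean of the control arrays (circles: fluoxetine arrays, squares: control arrays). The Shmt2 over Shmt1 ratio stands at 0.75 and 0.68 with fluoxetine, apart from both control arrays, while the groups overlap for the other pairs.

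The promoters of the 3 called enzymes are shown here because ATF4 acts on genes of this pathway through DNA elements. The RefSeq promoter table (GRCm38.p6, 250 bases before to 50 after the start site, 32851 windows) held 9 windows of 8 of the 9 enzymes. The composite C/EBP-ATF response element, searched as TGATGNAA on both strands, was in 0 of these 9 windows and in 3.97% of all windows, and the MYC E-box CACGTG in 0 of 9 and in 7.15% of all. The cAMP response half-site TGACGT, added after those found no match and overlapping neither, was in 2 of the 9 windows, those of Psph and Mthfd1l, and in 7.51% of all. The CCAAT box, searched as CCAAT and added at the same point, was in 6 of the 9 and in 37.4% of all. A match is a description of letters, and the lack of one says only that these letters are not in the window. Capitals mark the half-site, as its reverse complement ACGTCA, and the CCAAT boxes, here as ATTGG.
Psph, chr5:129787204-129787503, minus strand: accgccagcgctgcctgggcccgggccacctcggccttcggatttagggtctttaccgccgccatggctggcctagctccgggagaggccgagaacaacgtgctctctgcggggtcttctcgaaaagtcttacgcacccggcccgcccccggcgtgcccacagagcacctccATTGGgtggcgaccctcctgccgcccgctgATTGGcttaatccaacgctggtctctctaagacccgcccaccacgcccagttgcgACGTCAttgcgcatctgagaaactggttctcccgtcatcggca
Shmt2, chr10:127522395-127522694, minus strand: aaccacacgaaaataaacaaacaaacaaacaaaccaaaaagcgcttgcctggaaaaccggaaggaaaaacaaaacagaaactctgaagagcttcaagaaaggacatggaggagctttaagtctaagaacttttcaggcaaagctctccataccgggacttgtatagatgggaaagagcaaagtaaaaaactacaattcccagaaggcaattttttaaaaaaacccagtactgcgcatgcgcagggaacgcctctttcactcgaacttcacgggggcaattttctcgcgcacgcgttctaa
Shmt1, chr11:60811216-60811515, minus strand: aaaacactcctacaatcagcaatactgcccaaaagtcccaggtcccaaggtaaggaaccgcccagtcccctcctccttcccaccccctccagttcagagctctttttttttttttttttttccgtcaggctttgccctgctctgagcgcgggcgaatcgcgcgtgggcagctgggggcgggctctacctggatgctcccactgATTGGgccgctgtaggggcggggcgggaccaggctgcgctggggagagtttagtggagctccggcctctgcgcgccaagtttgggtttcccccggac
The Psph window, of the enzyme that rose the most among the calls, holds 2 CCAAT boxes that begin 78 and 48 bases before the start site and the half-site that begins 7 bases after it. The Shmt2 window holds none of the letters searched, and the Shmt1 window holds 1 CCAAT box that begins 47 bases before the start site.

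Around these 9 enzymes, 11 lists of neighbouring steps with 88 genes were examined, of which 77 could be tested. The lists were chosen with earlier results of these data known. In these lists 20 genes rose and 6 fell, which is 33.8% of those tested beside 27.0% of all genes, and their median change was 0.16 beside 0.06. With scaling by each array's median 43 rose and 2 fell, and the lower calls of Mtfmt (−0.16), Pfas (−0.12), Nnt (−0.12) and Ppat (−0.39) were lost. The serine and glycine transporters (4) and the regulators (6) held 10 of the 20 rises. Beside the counts of each list below, the shares over all genes tested were 16.8% called higher and 10.2% called lower.

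Of 8 tested transporters of serine and glycine, 4 rose and 1 fell (median 0.27). Slc6a9, the glycine transporter GLYT1, stood at 3.87 and 3.92 with fluoxetine against 2.94 and 3.05 in control, and rose by 0.90 ± 0.08 (adjusted p = 0.0126 in limma). Slc38a1 (0.74 ± 0.09) and Slc38a2 (0.41 ± 0.08), sodium-coupled neutral amino acid transporters, and Slc1a4 (0.48 ± 0.07), a neutral amino acid exchanger that carries serine, rose as well. The member that fell was Sfxn2, of the sideroflexin family of mitochondrial carriers (−0.60 ± 0.07, adjusted p = 0.0166 in limma), with its other kept probe changing the other way. Sfxn2 changed by −0.17 over the mean of both probes and was not called so. Sfxn1, the mitochondrial serine carrier, changed by −0.07 with its other probe of opposite sign, and Slc1a5 by 0.14, and neither passed the test.

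Of 11 tested regulators, 6 rose and 0 fell (median 0.39), beside 16.8% of all genes called higher and 10.2% lower. Ddit3, which encodes the stress factor CHOP, rose by 2.11 ± 0.13 and Trib3, a pseudokinase induced by ATF4 and CHOP, by 1.16 ± 0.08. Atf5, a relative of ATF4, rose by 0.59 ± 0.08 and Eif2ak1, the heme-regulated kinase of eIF2α, by 0.49 ± 0.10. Atf4 itself stood at 7.36 and 7.29 with fluoxetine against 6.83 and 7.17 in control, a change of 0.33 ± 0.14 that did not pass (adjusted p = 0.153 in limma). With the mean of its kept probes Atf4 changed by 0.35 and was not called (adjusted p = 0.0671 in limma). With scaling by each array's median, which moved the median of all genes to 0.27, Atf4 changed by 0.54 and was called higher (adjusted p = 0.0326 in limma). Eif2ak4, the kinase that senses uncharged tRNA, changed by −0.32 ± 0.09 and did not pass. With the mean of its kept probes Eif2ak1 changed by 0.28 and was not called (adjusted p = 0.0789 in limma). Eif2ak3, another kinase of eIF2α, was called higher at 0.42 ± 0.09. It was also called with the mean of its kept probes (0.36, adjusted p = 0.0379 in limma). Among the 6 regulators called, Kdm4c changed by 0.39, less than the 0.42 of Psph, and with the mean of its kept probes by 0.08 and was not called.

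Other enzymes of folate metabolism went down or did not pass: of 6 tested, 0 rose and 2 fell (median −0.10). Tyms, thymidylate synthase, which consumes methylene folate, stood at 2.50 and 2.45 with fluoxetine against 2.99 and 3.01 in control, and fell by 0.52 (SE 0.07, adjusted p = 0.0202 in limma). Mtfmt, which formylates the mitochondrial initiator tRNA, changed by −0.37 ± 0.07 and was called lower (adjusted p = 0.0354 in limma). Mthfd2l, a mitochondrial relative of Mthfd2, at −0.31 ± 0.09, did not pass, but was called lower with the mean of its kept probes (−0.34). Of 5 tested genes of folate uptake and retention 0 were called (median −0.03), the largest changes being those of Slc46a1, the proton-coupled folate transporter (0.15, with its other probe of opposite sign), and Slc25a32, the mitochondrial folate carrier (−0.11). In limma 0 of these 5 had an unadjusted p under 0.05. The 4 genes of the glycine cleavage system also had 0 calls and 0 unadjusted p under 0.05 in limma, with Amt, its aminomethyltransferase, at 0.35 ± 0.14 and Gcsh at 0.16 ± 0.08. The Amt signal was low, at −3.96 and −4.05 with fluoxetine and −4.19 and −4.53 in control.

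**Figure D4:**
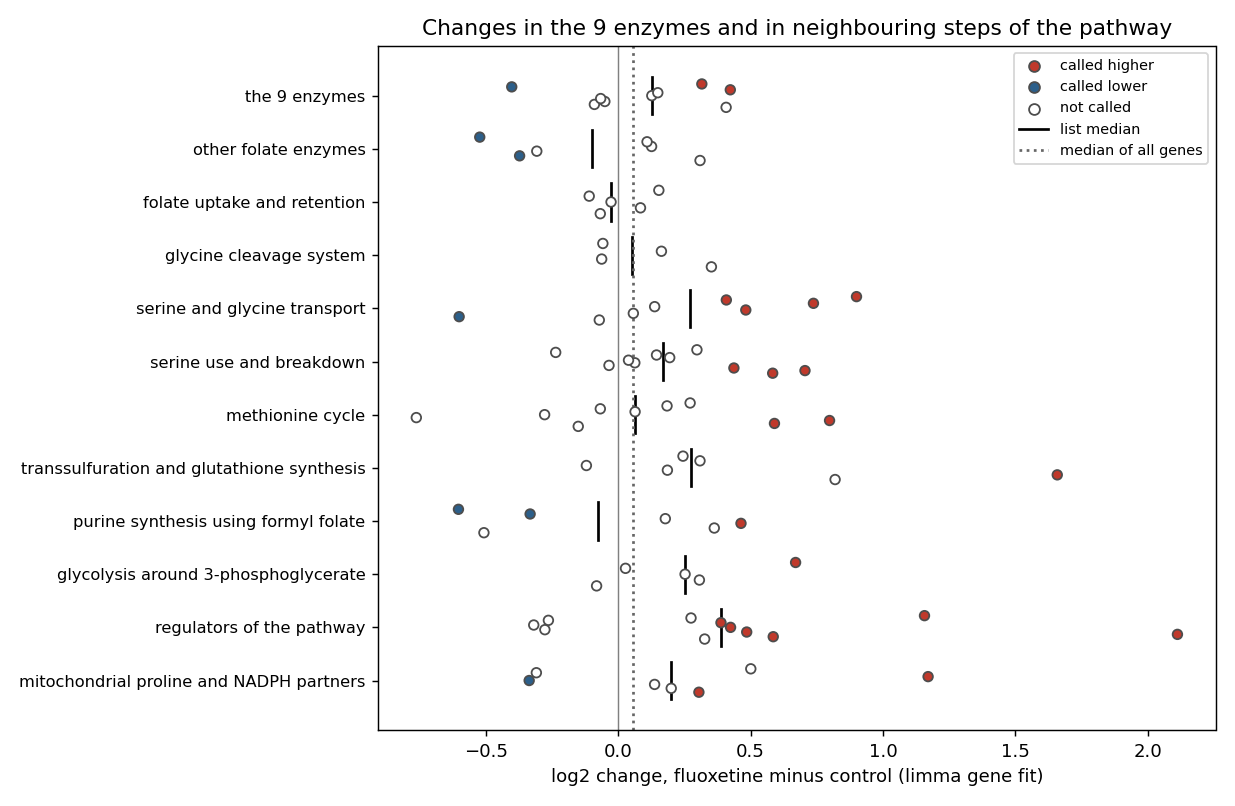
Log2 change of each tested gene in the 9 enzymes and in the 11 neighbouring lists (points; red called higher, blue called lower, white not called), with list medians as black bars and the median of all genes, 0.06, as a dotted line. The regulators reach 2.11 at Ddit3, while the 9 enzymes lie between −0.40 and 0.42.

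Purine synthesis, which uses formyl folate, was called in both directions: of 6 tested genes 1 rose and 2 fell (median −0.08). Gart, which carries the first formyl transfer, stood at 1.46 and 1.51 with fluoxetine against 1.09 and 0.96 in control, and rose by 0.46 ± 0.09. Ppat, the first committed step, changed by −0.60 ± 0.12 and Pfas, which precedes ring closure, by −0.33 ± 0.07, both called lower (adjusted p = 0.0337 and 0.0431 in limma). Atic, which carries the second formyl transfer, changed by 0.36 ± 0.09 and Adsl by −0.51 ± 0.13, and neither passed.

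Of 10 tested genes that use or break down serine, 3 rose and 0 fell (median 0.17). They were the phosphatidylserine synthases Ptdss2 (0.71 ± 0.10) and Ptdss1 (0.58 ± 0.10), which place serine into phospholipid, and Sdsl, a serine dehydratase-like gene (0.44 ± 0.09). Srr, serine racemase, at 0.30 ± 0.09, and Sptlc2, of the serine palmitoyltransferase that starts sphingolipid synthesis, at −0.24 ± 0.12, did not pass.

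In the methionine cycle 2 of 9 tested genes rose and 0 fell (median 0.06). Both, Ahcyl2 (0.80 ± 0.09) and Ahcyl1 (0.59 ± 0.08), are relatives of adenosylhomocysteinase known to act in calcium and ion transport signalling, and 1 of the other kept probes of Ahcyl1 changed the other way. Ahcyl1 changed by 0.27 over the mean of its kept probes and was not called so. Gnmt, glycine N-methyltransferase, at −0.76 ± 0.41, and Mat2a, which makes S-adenosylmethionine, at −0.28 ± 0.10, did not pass. The Gnmt signal was low, at −3.20 and −3.29 with fluoxetine and −1.91 and −3.06 in control. In transsulfuration and glutathione synthesis 1 of 6 rose and 0 fell: Chac1, which breaks glutathione down and is induced by ATF4 (1.66 ± 0.10, adjusted p = 0.00989 in limma). Cbs, which joins serine to homocysteine, at 0.82 ± 0.28, and Gclm at 0.31 ± 0.14 did not pass. The Cbs signal was low, at −3.02 and −2.45 with fluoxetine and −3.82 and −3.29 in control.

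Of 5 tested glycolytic genes around 3-phosphoglycerate, 1 rose and 0 fell (median 0.25). Pkm, pyruvate kinase, rose by 0.67 ± 0.08, and Gapdh (0.31 ± 0.08, adjusted p = 0.0528 in limma) and Pgam1 (0.25 ± 0.09) did not pass. Gapdh was called higher with the mean of its kept probes (0.32, adjusted p = 0.0464 in limma). Among 7 tested genes of mitochondrial proline synthesis and NADPH production, 2 rose and 1 fell (median 0.20). Pycr1, a proline synthesis enzyme, stood at −0.48 and −0.55 with fluoxetine against −1.83 and −1.55 in control, and rose by 1.17 ± 0.12 (adjusted p = 0.0141 in limma). Aldh18a1, which makes the precursor of proline, rose by 0.31 ± 0.07, and Nnt, the mitochondrial transhydrogenase, changed by −0.34 ± 0.08 and was called lower (adjusted p = 0.0488 in limma). Pycrl (0.50 ± 0.16) did not pass.

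Without any 1 of the 4 arrays, limma called 0 of the 9 enzymes, with 2 or 3 of the 9 at an unadjusted p under 0.05. The sizes of the 3 called changes ran from 0.38 to 0.46 for Psph, from 0.30 to 0.34 for Shmt2 and from −0.45 to −0.35 for Shmt1. With 2 arrays per group such a range only restates the gap between the arrays of a group, which is small in genes that were called. The second probes of Psat1 and Mthfd1 were still called without control 2 (0.84 and 0.87, adjusted p = 0.0387 and 0.0377 in limma) and not without any other array. Among the 77 neighbouring genes the calls numbered 5 without control 1, 14 without control 2 and 0 without either fluoxetine array, where limma called 0 of all 13539 genes. Ddit3, Trib3, Chac1, Slc6a9 and Pycr1 were called without control 1 and also without control 2.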

How the data were processed

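RNA of S-180 cells was hybridised to 4 single-colour (Cy3) Agilent arrays. Per the file headers, the authors scanned them with Feature Extraction 12.1.0.3, and the deposited intensity of each spot is linear, background-corrected and unscaled across arrays. The marks for spots above background, saturated or non-uniform were also set by the authors' software, per the file headers. Later steps by the authors are not given in the sources used here.

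Values were processed in R 4.3.3 with limma 3.58.1. Control spots and 47 probes with a non-uniform spot were left out, spots of a probe were averaged on the log2 scale, and each array's 75th percentile over distinct probes was subtracted. The base-2 logarithm was taken of the deposited signal. Symbols came from RefSeq (GRCm38.p6) by transcript accession without version: 34645 of 56605 probes had 1 symbol. The array design names another build, so no gene coordinates are given, and promoter coordinates are those of the RefSeq table. The filter kept probes that 1 group or both had well above background on its 2 arrays. Groups were compared with lmFit and eBayes, with no term besides group. An exact permutation test with 2 arrays against 2 cannot go below p = 0.333. Precision is limited by the number of arrays. No 2 arrays held identical values.

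The enzymes, the gene lists and the naming rule were chosen with earlier results of these data known. The rule named all 9 enzymes with every probe and, of each list, every called gene where 5 or fewer were called and otherwise the 4 with the largest change, plus up to 2 uncalled genes with the largest change. Some genes that the rule would name are not reported here. The fit was tested on simulated data. Alternatives covered background correction, scaling, the filter, the probe rule, the spread model, each array left out and the replicate number as a block. Where 1 array was left out, the lone array was assumed to vary like the other group.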

Additional observations from a re-analysis of the deposited data

How the results depend on the processing

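The direction of Psph, Shmt2 and Shmt1 was the same under all 16 alternatives, and no called change of a gene or probe followed here turned its sign. Many of the alternatives could not turn it. The spread model, the blocks, the filter and the spot rules left the changes of these 3 genes as they were. Leaving out 1 array cannot turn a sign where the groups do not overlap, as for these 3. Psph kept its call under 10 of them, Shmt1 under 7 and Shmt2 under 6. The scaling moved the level of all genes: with each array's median in place of the 75th percentile, the median change of all genes was 0.27 against 0.06, 6294 genes were called (5482 higher and 812 lower, so that 87.1% of calls were higher against 62.3%), as were 4 of the 9 enzymes higher and 0 lower, 7 of their probes and 45 of the neighbouring genes (43 higher and 2 lower). Both scalings subtract a single value from each array, so the distance of any gene from the median of all genes is the same under either. That distance was 0.37 for Psph, 0.26 for Shmt2 and −0.46 for Shmt1, and its sameness says nothing of these genes. With quantile normalization, and with the 75th percentile over all spots (an alternative chosen after seeing the data), 1 enzyme was called higher. With dim probes kept in, limma called 0 genes, 0 probes, 0 of the 9 enzymes (higher or lower), 0 of their probes and 0 neighbouring genes, with 5272 genes and 3 enzymes at an unadjusted p under 0.05. With the mean of kept probes 0 enzymes were called lower, and the difference in change between counterparts was 0.42 for Shmt2 and Shmt1, −0.19 for Mthfd2 and Mthfd1 and −0.40 for Mthfd1l and Mthfd1.

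With 1 array left out, calls ran from 0 to 2660 for genes (0 to 1701 higher, 0 to 959 lower), from 0 to 4620 for probes, from 0 to 2 for probes of the enzymes and from 0 to 14 for neighbouring genes, and were 0 throughout for the 9 enzymes in both directions. The differences between counterparts ran from 0.64 to 0.79 for Shmt2 and Shmt1, from −0.10 to 0.14 for Mthfd2 and Mthfd1 and from −0.19 to 0.27 for Mthfd1l and Mthfd1. The replicate numbers are shared by the groups, but nothing says that they mark a shared culture or day, and the deviations of same-numbered arrays were weakly and negatively correlated across genes (r = −0.12). With the replicate number as a block, limma called 1859 genes (1085 higher and 774 lower), 1281 probes, 0 enzymes higher or lower, 0 of their probes and 12 neighbouring genes. With the pairing crossed, also chosen after seeing the data, it called 1 enzyme higher, 0 lower, 1 in all, 1 of their probes and 3475 probes. Normexp was run on median signals, and the slide as a block was not run, since all arrays lay on 1 slide. Signals near background, as for Aldh1l2 and the second Shmt2 probe, limit what can be said of them, and the low signals of Amt, Cbs and Gnmt call for the same care.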
